A study of Mus musculus with 4 samples.

Results

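To describe how the growth factor receptors and feedback inhibitors of primary neural stem/progenitor cells (NSCs) were expressed with and without Chd5, 10 genes were followed by RNA-seq. They were the receptor genes Egfr, Erbb2, Erbb4, Fgfr1, Fgfr2 and Fgfr3 and the feedback genes Spry1, Spry2, Spry4 and Dusp6. They were chosen by gene name, and all 10 were found, each in 1 of the 18169 rows of the deposited table. All 10 had a mean of at least 1 TPM and were among the 12576 rows tested. TPM is transcript abundance, corrected for transcript length and scaled to the same total in each sample, so levels can be set side by side between genes. The samples were 2 cultures of +/+ NSCs and 2 of Chd5-/- NSCs, all of strain C57BL/6, each grown from the periventricular region of an individual newborn brain. Chd5 encodes a chromatin remodeler, and the Chd5-/- cultures came from a Chd5-deficient mouse line whose allele and parentage are not given in the sources used here. All cultures were grown, and not differentiated, in medium with epidermal growth factor (EGF) at 20 ng per ml and fibroblast growth factor 2 (FGF2), so the ligands of both receptor families were supplied from outside. The labels give FGF2 as 20 ng without a volume. The growth protocol gives postnatal day 1 for the brains, whereas the age entries give days 1 and 2 for +/+ and days 3 and 4 for Chd5-/-. If these entries are right, age and genotype cannot be told apart.

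EGF receptors of the ERBB family and FGF receptors are receptor tyrosine kinases at the cell surface. When a ligand binds, they pass the signal through adaptor proteins and Ras to the ERK kinase cascade, which in NSCs sustains proliferation and self-renewal. ERK signalling in turn induces the genes of its own inhibitors. Sprouty proteins act on the cascade between receptor and ERK, and the phosphatase Dusp6 removes the activating phosphates from ERK itself, so the transcripts of these genes are widely used as a readout of recent pathway output. EGFR also marks activated NSCs, whereas Fgfr3 and Erbb4 are known from radial glia and astrocytes and, for Erbb4, from young interneurons.

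The promoters of 4 genes that the results below turn on are shown, Egfr and Erbb4, which were highest in Chd5-/- replicate 2, and Dusp6 and Spry1, which were lowest there. Each is the 250 bases upstream of a RefSeq start on GRCm38.p6, the same assembly as mm10, read 5′ to 3′ on the gene's strand. Capitals mark matches to CCGGAA on either strand, a core recognised by ETS factors, which are targets of ERK.
Egfr, chr11:16751953-16752202, plus strand: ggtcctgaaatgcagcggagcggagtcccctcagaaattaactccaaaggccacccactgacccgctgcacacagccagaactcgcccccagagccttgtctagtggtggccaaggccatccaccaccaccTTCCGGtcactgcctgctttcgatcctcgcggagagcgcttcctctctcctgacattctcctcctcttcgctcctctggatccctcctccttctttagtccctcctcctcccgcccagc
Erbb4, chr1:69108060-69108309, minus strand: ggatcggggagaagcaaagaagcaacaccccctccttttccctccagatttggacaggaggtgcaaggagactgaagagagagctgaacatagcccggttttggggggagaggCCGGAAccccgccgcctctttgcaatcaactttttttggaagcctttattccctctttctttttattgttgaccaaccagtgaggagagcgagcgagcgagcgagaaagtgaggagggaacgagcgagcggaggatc
Dusp6, chr10:99262981-99263230, plus strand: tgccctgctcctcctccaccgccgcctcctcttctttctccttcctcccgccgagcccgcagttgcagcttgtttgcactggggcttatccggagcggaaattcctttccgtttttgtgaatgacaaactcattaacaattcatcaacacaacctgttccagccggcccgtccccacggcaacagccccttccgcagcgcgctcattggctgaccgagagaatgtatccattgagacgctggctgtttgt
Spry1, chr3:37639697-37639946, plus strand: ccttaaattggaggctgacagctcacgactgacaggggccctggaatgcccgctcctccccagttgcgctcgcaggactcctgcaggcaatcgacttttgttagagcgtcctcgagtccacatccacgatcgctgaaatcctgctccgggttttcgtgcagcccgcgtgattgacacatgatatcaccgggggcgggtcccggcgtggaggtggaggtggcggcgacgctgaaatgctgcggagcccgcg
The ETS core was present 1 time in the Egfr window and 1 time in the Erbb4 window and did not occur in these letters in the Dusp6 or Spry1 window. It was also not found in the 2 windows of Fgfr3, another gene highest in Chd5-/- replicate 2, nor in the windows of Erbb2, Fgfr2 and Spry2. It was held by 3952 of 32851 promoter windows of the same length. The AP-1 motif TGANTCA occurred in 0 of these 4 windows, against 6.75% of all windows. GC content was 60.8% for Egfr, 54.0% for Erbb4, 56.4% for Dusp6 and 62.4% for Spry1, against a median of 52.4% over all windows. RefSeq windows were matched for 8 of the 10 genes.

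In +/+ NSCs the feedback genes were the more abundant class. Spry2 stood at 354.9 ± 6.90 TPM (SD, n = 2, as for each value that follows) and Dusp6 at 224 ± 51.5 TPM. Egfr, at 134 ± 6.89 TPM, was the most abundant receptor and the third of the 10 genes. Below it came Spry4 at 77.5 ± 0.156 TPM, Spry1 at 76.1 ± 0.120 TPM and Fgfr1 at 52.3 ± 3.02 TPM. Fgfr3 was at 25.4 ± 2.60 TPM, Erbb4 at 15.2 ± 1.73 TPM, Fgfr2 at 13.9 ± 1.07 TPM and Erbb2 at 1.14 ± 0.198 TPM. Among neighbours in this order, the ranges of the +/+ samples overlapped for Erbb4 and Fgfr2 alone. The family members that complete the set were nearly absent, Erbb3 at 0.18 and 0.07 TPM and Fgfr4 listed at 0 in both samples. The +/+ samples were close to each other for these genes. Their difference in log2(TPM + 1) was at most 0.47 (Dusp6), with a median size of 0.13 against 0.25 over all rows tested.

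**Figure D1:**
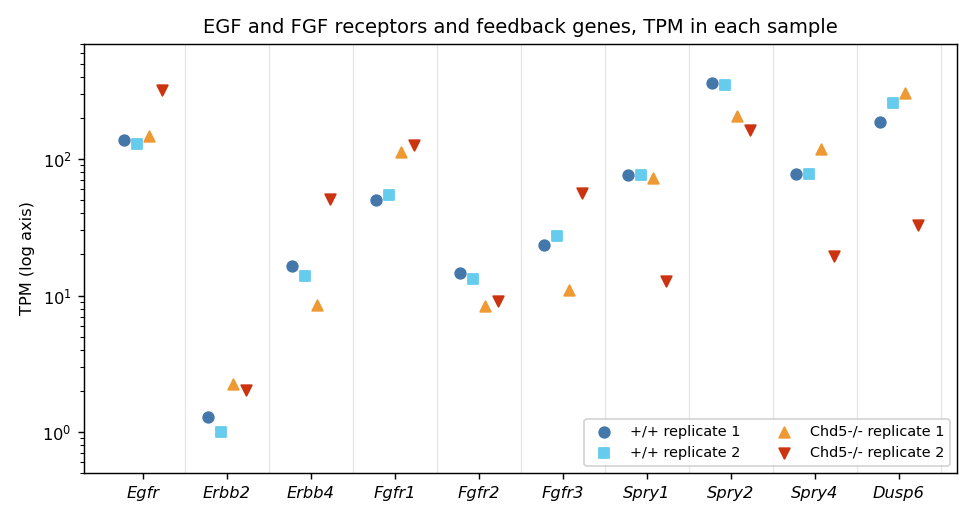
TPM (log axis) of the 10 genes, 1 point per sample, blue for the +/+ and orange or red for the Chd5-/- samples. Fgfr1 lies higher and Spry2 and Fgfr2 lie lower in both Chd5-/- samples, whereas Dusp6, Spry4 and Spry1 are low (32.87, 19.66 and 12.74 TPM) and Egfr, Erbb4 and Fgfr3 high (324.03, 50.63 and 56.76 TPM) in Chd5-/- replicate 2.

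Next, the targeted gene and the cell types were checked. Chd5 was at 0.39 and 0.37 TPM in +/+ NSCs against 0.06 and 0.04 TPM in Chd5-/- NSCs, lower in the latter but under the 1 TPM minimum for testing throughout. All 9 NSC and radial glia markers, among them Sox2, Vim, Fabp7 and Nes, were detected in every sample. They summed to 9688 and 8017 TPM in +/+ and to 3822 and 6574 TPM in Chd5-/-. Fabp7 and Slc1a3 made up most of each sum. These 2, Sox2 and Vim were below both +/+ samples in each Chd5-/- sample, whereas Nes, Msi1, Pax6, Hes5 and Prom1 were not. Of the 9, 1 was lower (Slc1a3) and 0 higher at an unadjusted p under 0.05, beside 2.27% and 21.9% of all rows. The 8 neuron markers summed to 535 and 522 TPM in +/+ and to 429.5 and 803 TPM in Chd5-/-. Map2 made up most of each sum, at 502.92 and 515.77 TPM in +/+ and at 365.59 and 784.89 TPM in Chd5-/-. Tubb3, Dcx, Rbfox3, Snap25 and Stmn2 were at most 2.98 TPM in any sample, and Gad1 reached 57.17 TPM in Chd5-/- replicate 1. Of the 4 neuron markers with a mean of at least 1 TPM, 1 was higher at an unadjusted p under 0.05 (Syt1). The 4 ependymal markers summed to 4.58 and 6.18 TPM in +/+ and to 11.61 and 11.71 TPM in Chd5-/-, and of the 2 tested 1 was higher (Foxj1). Of the 2 microglia and 3 endothelial markers with a row, none reached 1 TPM in any sample. The rank correlation of TPM over the rows tested was 0.974 between the +/+ samples but 0.904 between the Chd5-/- samples, no higher than between genotypes (0.904 to 0.925). The median log2 fold change over all rows was 0.34 (0.0052 after median-of-ratios scaling), so the main differences below are also given relative to that shift. No count of reads can be recovered from TPM, so depth is unknown and the error rests on 2 samples per genotype.

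To ask which of the 10 genes differed between genotypes, log2(TPM + 1) of the Chd5-/- and +/+ NSCs was fitted by limma, with Benjamini-Hochberg adjustment over all 12576 rows. Of the 10 genes, 0 passed an adjusted p of 0.05 (smallest 0.120, for Fgfr1), where 0.0557% of all rows did (0.0318% higher and 0.0239% lower). At an unadjusted p under 0.05 there were 2, Fgfr1 higher and Spry2 lower. Over all rows, 21.9% were higher and 2.27% lower by that rule. For 3 genes (Fgfr1, Egfr and Erbb2) each Chd5-/- sample exceeded each +/+ sample, as for 46.3% of all rows, and for 3 genes (Spry2, Spry1 and Fgfr2) each was below, as for 13.0%. For the remaining 4 genes the Chd5-/- samples lay on opposite sides of the +/+ range, as for 17.1% of all rows. Replicate 1 was the low one for Fgfr3 and Erbb4 (8.04% of all rows) and the high one for Dusp6 and Spry4 (9.03%). None of the 10 genes had a Chd5-/- sample within the +/+ range, which 23.6% of all rows had. The median log2 fold change of the 10 genes was -0.31, beside 0.34 for all rows. It was -0.021 without Chd5-/- replicate 1 and 0.036 without replicate 2, a change of sign. It was -0.66 after median-of-ratios scaling, beside 0.0052 for all rows. With trends in GC content and length removed it was -0.93, beside -0.029 for all rows. Each of these counts describes 10 genes picked by name and was not tested as a set.

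Fgfr1, on chromosome 8 of GRCm38 from 25513654 to 25575718 (plus strand), encodes a main receptor for FGF2. It was at 50.13 and 54.40 TPM in +/+ NSCs against 113.73 and 126.16 TPM in Chd5-/- NSCs. The genotypes did not overlap, and the samples within each were close. The mean was 2.29-fold higher in Chd5-/- NSCs. This was 1.18 ± 0.21 (SE) on the log2 scale, with an adjusted p of 0.120 from limma, or 0.84 above the median of all rows. The transcript has a GC content of 55.4%, and the 1000 rows nearest to it in GC content had a median of 0.84 on that scale. With trends in GC content and length removed from each sample, Fgfr1 was at 0.43 (adjusted p = 0.491). In the annotation 164 of its exon bases are shared with Gm16159 on the opposite strand, a gene listed at 0 TPM in +/+ NSCs against 0.13 TPM in each Chd5-/- sample.

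Spry2, on chromosome 14 from 105891947 to 105896819 (minus strand), encodes the most abundant Sprouty of these cells. It was at 359.77 and 350.01 TPM in +/+ NSCs against 208.40 and 163.77 TPM in Chd5-/- NSCs. Here too the genotypes did not overlap. The log2 fold change was -0.94 (standard error 0.23, adjusted p = 0.128 from limma), or -1.28 relative to the median of all rows. It missed an unadjusted p of 0.05 without +/+ replicate 1 (-0.92) and without +/+ replicate 2 (-0.96). Its transcript has a GC content of 46.2%, near which the median row was at 0.13, and with the trends removed Spry2 was at -1.10 (adjusted p = 0.391). Removal of the trends also took out the shift over all rows, whose median was 0.34 as deposited and -0.029 afterwards. The value with the trends removed is therefore to be set against -1.28 rather than -0.94. Relative to all rows, the differences of Spry2 and of Fgfr1 were both smaller with the trends removed.

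Fgfr2, which GENCODE places on chromosome 7 from 130162451 to 133123350 (minus strand), encodes a further FGF receptor. It was at 14.68 and 13.16 TPM in +/+ NSCs against 8.32 and 9.16 TPM in Chd5-/- NSCs, again without overlap. The log2 fold change was -0.61 (standard error 0.26, adjusted p = 0.225 from limma), or -0.95 relative to the median of all rows. It did not pass an unadjusted p of 0.05 as deposited and did so after each of the 3 other scalings (median-of-ratios, quantile, and rescaling without the 20 most abundant rows) and with the trends removed (-1.03). The annotation gives it 314 exon bases in common with Ctbp2 on the same strand, which was at 38.74, 38.19, 39.32 and 32.06 TPM in the same order of samples.

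Erbb2, the ERBB receptor without a ligand of its own and the preferred partner of the others, was at 1.28 and 1.00 TPM in +/+ NSCs against 2.24 and 2.04 TPM in Chd5-/- NSCs. The log2 fold change was 0.56 (standard error 0.34, adjusted p = 0.360 from limma). It lies on chromosome 11 from 98412470 to 98437716 (plus strand) and has the highest GC content of the 10 genes (57.3%). Its direction did not hold, since the value was -0.044 once the samples were quantile normalized and -0.30 once the GC and length trends were taken out.

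**Figure D2:**
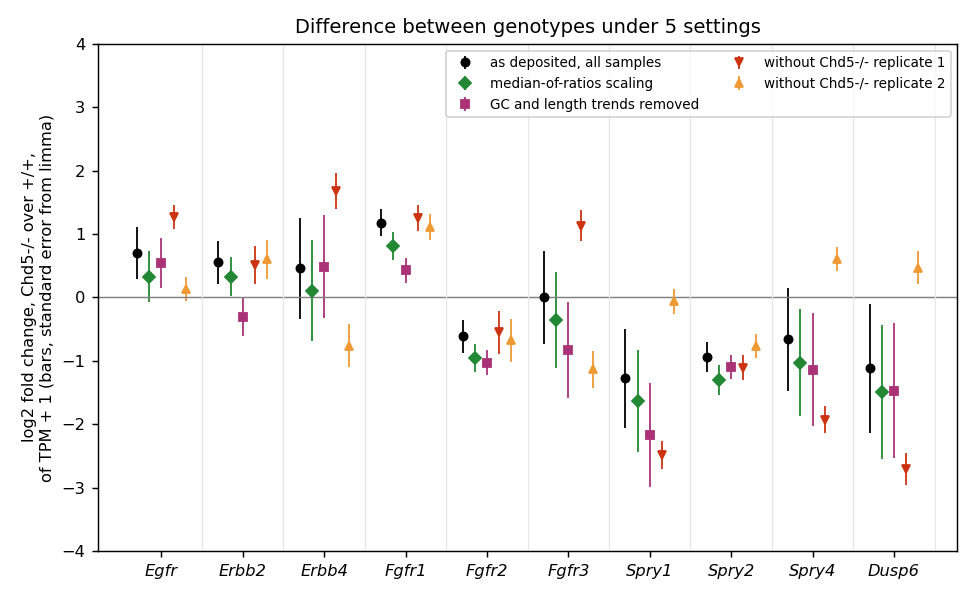
Log2 fold change of TPM + 1, Chd5-/- over +/+, for each gene (bars, standard error from limma) under 5 settings, namely as deposited with all samples, after median-of-ratios scaling, with GC and length trends removed, and without either Chd5-/- replicate. Fgfr1 stays above 0 (0.43 to 1.26) and Spry2 and Fgfr2 below 0. Egfr also stays above and Spry1 below, but both are near 0 without Chd5-/- replicate 2 (0.13 and -0.062). Erbb4, Fgfr3, Spry4 and Dusp6 lie on either side of 0 depending on which Chd5-/- replicate is left out.

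The other 6 genes differed by more than 2-fold between the Chd5-/- samples themselves. By that rule 8.87% of all rows were lower in replicate 2 and 8.01% higher, and of the 10 genes 3 were lower and 3 higher. The 3 lower ones are feedback genes and the 3 higher ones are receptors. The median size of the difference between the Chd5-/- samples was 1.70 on the log2 scale for the 10 genes and 0.40 for all rows. None of the 10 genes differed by 2-fold between the +/+ samples, as 4.06% of all rows did, nor did Fgfr1, Fgfr2, Spry2 or Erbb2 between the Chd5-/- samples.

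Dusp6, the ERK phosphatase (chromosome 10, 99263231 to 99267489, plus strand), was at 187.36 and 260.13 TPM in +/+ NSCs, at 306.62 TPM in Chd5-/- replicate 1 and at 32.87 TPM in replicate 2. Replicate 1 was the highest sample and replicate 2 was 6.81-fold below the +/+ mean. Only 0.994% of all rows differed as much between the Chd5-/- samples. Spry4, a Sprouty gene on chromosome 18, was at 77.64 and 77.42 TPM in +/+ NSCs against 118.34 and 19.66 TPM in Chd5-/- NSCs, the same order as Dusp6. Spry1 (chromosome 3, 37639947 to 37644598, plus strand) was at 76.04 and 76.21 TPM in +/+ NSCs against 72.88 and 12.74 TPM in Chd5-/- NSCs. For Spry1, replicate 1 was thus 1.04-fold and replicate 2 was 5.98-fold below the +/+ mean. The log2 fold changes between genotypes were -1.12 for Dusp6, -0.66 for Spry4 and -1.28 for Spry1, with standard errors of 1.02, 0.81 and 0.78. Relative to the median of all rows they were -1.46 for Dusp6, -1.0 for Spry4 and -1.61 for Spry1. Spry1 shares 710 exon bases with Gm42922 on the opposite strand, a gene without a value here.

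Among the receptors, Egfr (chromosome 11, 16752203 to 16918158, plus strand) was at 138.93 and 129.19 TPM in +/+ NSCs against 147.21 TPM in Chd5-/- replicate 1, a difference of 1.10-fold from the +/+ mean. In replicate 2 it was at 324.03 TPM, 2.42-fold above that mean and the most abundant of the 10 genes there. The log2 fold change between genotypes was 0.70 (standard error 0.41, adjusted p = 0.341 from limma), or 0.36 above the median of all rows. Erbb4, a neuregulin receptor on chromosome 1 (68032186 to 69108059, minus strand), was at 16.40 and 13.95 TPM in +/+ NSCs against 8.52 and 50.63 TPM in Chd5-/- NSCs. Fgfr3 (chromosome 5, 33721674 to 33737068, plus strand) was at 23.52 and 27.20 TPM in +/+ NSCs against 10.96 and 56.76 TPM in Chd5-/- NSCs. For both, replicate 1 lay below and replicate 2 above the +/+ range, and the mean differences between genotypes (0.46 and -0.00068 on the log2 scale) describe neither sample. Fgfr3 shares 998 exon bases with G630022F23Rik on the opposite strand, also without a value here.

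The summed markers of astrocytes were likewise low in Chd5-/- replicate 1 and high in replicate 2. All 7 were detected, with a summed level of 698 and 804 TPM in +/+ NSCs against 204 and 999 TPM in Chd5-/- NSCs. Gfap was at 13.89, 14.31, 0.71 and 19.66 TPM in the same order. Like Gfap, the markers Aldoc, Slc1a2 and Gjb6 were below the +/+ range in replicate 1 and above it in replicate 2. Not all followed the sum. Aldh1l1 lay within the +/+ range in both Chd5-/- samples, Aqp4 in replicate 1 and S100b in replicate 2. The 7 oligodendrocyte lineage markers with a row summed to 571 and 631 TPM in +/+ and to 504 and 928 TPM in Chd5-/- NSCs. Olig1 and Olig2 made up most of each sum. In Chd5-/- NSCs Olig1 was at 300.77 and 664.38 TPM, whereas Olig2 was at 190.31 and 169.68 TPM, above both +/+ samples in each. Of the NSC and radial glia markers, Pax6 and Hes5 were also below the +/+ range in replicate 1 and above it in replicate 2. Nes had the reverse order. The 7 mesenchymal markers summed to 0.35 and 0.02 TPM in +/+ and to 15.15 and 5.33 TPM in Chd5-/-, and 1 of the 3 with a mean of at least 1 TPM was higher at an unadjusted p under 0.05, beside 21.9% of all rows. This was Twist1, at 0.26 and 0 TPM in +/+ against 2.92 and 5.16 TPM in Chd5-/-. Col3a1 and Dcn reached 7.41 and 4.17 TPM in Chd5-/- replicate 1 and were at most 0.06 TPM elsewhere, and Col1a1 was listed at 0 in 3 of the 4 samples. The part of these cell types in the differences was not tested, and in bulk RNA fewer cells of a type and less RNA per cell cannot be told apart.

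**Figure D3:**
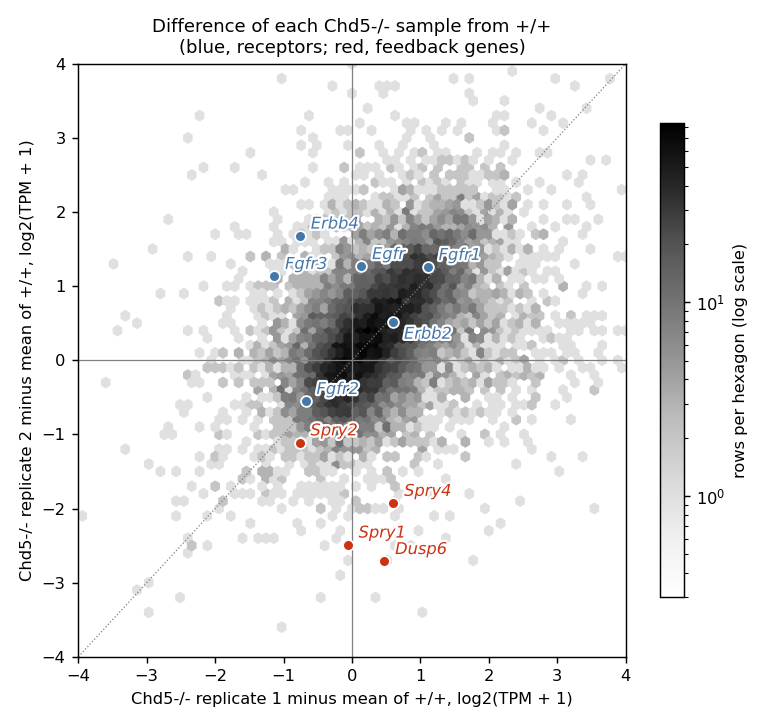
Difference of Chd5-/- replicate 1 (horizontal axis) and replicate 2 (vertical axis) from the mean of +/+ in log2(TPM + 1), with all 12576 rows tested as grey hexagons (row count on a log scale), receptors in blue and feedback genes in red. Dusp6, Spry1 and Spry4 lie at the lower edge of the cloud and Erbb4 and Fgfr3 at its upper left edge, whereas Fgfr1, Fgfr2, Erbb2 and Spry2 lie near the dotted line of equal difference.

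With this split, the number of genes called depended on which Chd5-/- culture was kept. Without Chd5-/- replicate 1, and with replicate 2 assumed to vary like the +/+ samples, 8 of the 10 genes passed an adjusted p of 0.05 with limma, against 8.09% of all rows that were higher and 1.82% that were lower. The 4 higher genes were Egfr (1.27), Erbb4 (1.68), Fgfr1 (1.26) and Fgfr3 (1.14), and the 4 lower were Dusp6 (-2.71), Spry1 (-2.49), Spry4 (-1.93) and Spry2 (-1.11), all as log2 fold changes. Without Chd5-/- replicate 2 the only gene past the threshold was Fgfr1 (1.11, adjusted p = 0.0347), against 7.27% of all rows that were higher and 1.37% that were lower, and Spry2 was at -0.77 (adjusted p = 0.0664). In that comparison Dusp6 (0.47), Spry4 (0.60), Erbb4 (-0.76) and Fgfr3 (-1.14) had the opposite direction. These are comparisons of 1 Chd5-/- culture with the +/+ cultures, not of the genotypes.

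Shares within a family and ratios between families were then examined, since they do not move when all rows of a sample are rescaled. With 2 samples against 2, the smallest p that an exact permutation test allows is 0.333 (two-sided). Fgfr1 made up 56.8% and 57.4% of FGF receptor TPM in +/+ NSCs against 85.4% and 65.7% in Chd5-/- NSCs, a larger share in both cultures (exact permutation p = 0.333). The share of Fgfr2 was 16.6% and 13.9% in +/+ and 6.25% and 4.77% in Chd5-/-. That of Fgfr3 was 26.6%, 28.7%, 8.23% and 29.5% in the same order, low in Chd5-/- replicate 1 alone. Egfr held between 86.0% and 92.9% of ERBB receptor TPM in every sample. Spry2 held 69.8% and 69.2% of Sprouty TPM in +/+, 49.8% in Chd5-/- replicate 1 and 82.6% in replicate 2. Over the 4 feedback genes, summed TPM was 701 and 764 in +/+ and 706 and 229 in Chd5-/-, and over the 6 receptors it was 245, 239, 291 and 569. The ratio of feedback to receptor TPM was accordingly 2.86 and 3.20 in +/+, 2.43 in Chd5-/- replicate 1 and 0.403 in replicate 2. On the log2 scale the genotypes differed by -1.61 (exact permutation p = 0.333), which was -0.32 without Chd5-/- replicate 2 and -2.91 without replicate 1.

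**Figure D4:**
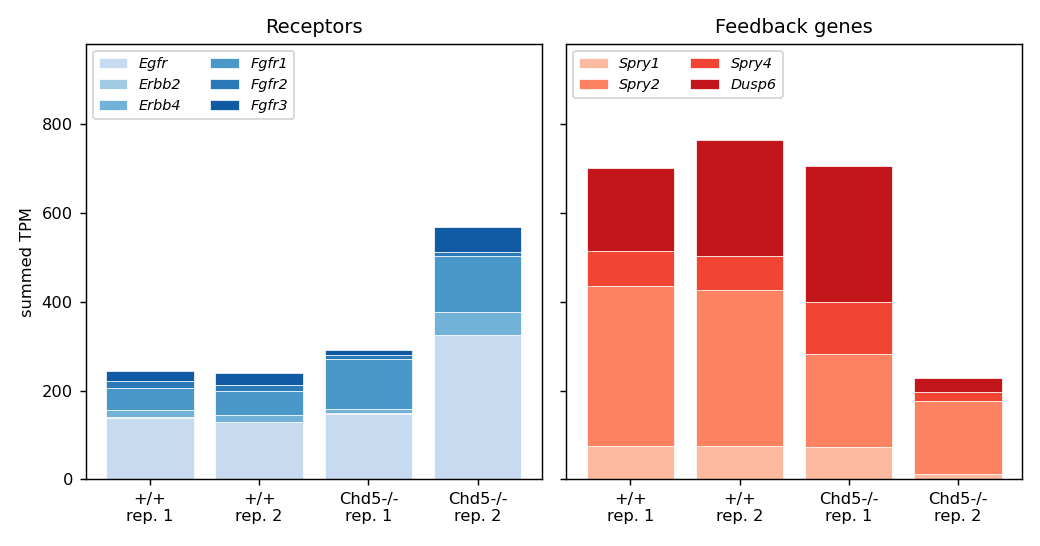
Summed TPM in each sample of the 6 receptors (left) and the 4 feedback genes (right), stacked by gene, on a common linear axis from 0. In Chd5-/- replicate 2 the receptors reach 569 TPM and the feedback genes 229 TPM, whereas in the other 3 samples the feedback genes exceed the receptors.

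Other genes of the pathway were counted in the same fit, by lists that cover ligands, receptors and co-receptors, the cascade, other feedback genes and ERK-induced genes. None of them passed an adjusted p of 0.05 with limma. Of the 72 rows of these lists that were tested, 9 were higher at an unadjusted p under 0.05, beside 21.9% of all rows. In the cascade, 4 of 22 rows were higher (Mapk3, Map2k2, Sos2 and Shc1). Mapk3, which encodes ERK1, was at 30.22 and 20.58 TPM in +/+ and at 80.38 and 100.94 TPM in Chd5-/-, a log2 fold change of 1.81 (adjusted p = 0.120).

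Of the other feedback genes, 17 rows were tested. At an unadjusted p under 0.05, 1 was higher and 0 were lower, beside 21.9% and 2.27% of all rows. After median-of-ratios scaling 1 was higher and 4 were lower, beside 1508 and 1311 of all 12576 rows. With GC and length trends removed 0 of 16 were higher and 2 lower, beside 612 and 700 of 11700 rows. As deposited, 7 had the Chd5-/- samples on opposite sides of +/+, beside 17.1% of all rows. Dusp4, which encodes a nuclear ERK phosphatase, was at 32.69 and 31.78 TPM in +/+ and at 61.4 and 5 TPM in Chd5-/-, the same order of samples as Dusp6 and the lowest log2 fold change of its list (-0.78, standard error 1.07). Dusp5, another nuclear ERK phosphatase and the highest of the list, was instead at 7.71 and 7.5 TPM in Chd5-/- against 1.29 and 1.88 TPM in +/+ (1.74, adjusted p = 0.120). Spry3 was at 1.62 and 2.47 TPM in +/+ and at 18.91 and 2.22 TPM in Chd5-/-. Of the 7 on opposite sides of +/+, Dusp4 and Dusp7 had the order of Dusp6. The others, Cbl, Lrig1, Lrig2, Nf1 and Il17rd, were below the +/+ range in Chd5-/- replicate 1 and above it in replicate 2. Thus the genes of this class did not share 1 order of the Chd5-/- samples, and several were high rather than low in replicate 2.

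Among ERK-induced transcription factors and targets, 2 of 19 rows were higher and 0 lower at an unadjusted p under 0.05, again beside 21.9% and 2.27% of all rows. These counts depended on the processing. After median-of-ratios scaling 1 was higher and 2 were lower, beside 1508 and 1311 of all 12576 rows. With GC and length trends removed 0 were higher and 6 lower, beside 612 and 700 of the 11700 rows in that fit. The median log2 fold change of the list was 0.059 as deposited and -0.63 with the trends removed. Ier2, an immediate early gene, had the highest log2 fold change of the list (1.17, adjusted p = 0.153). Ccnd1, which encodes the G1 cyclin D1, had the lowest (-1.56, standard error 0.87, adjusted p = 0.331). It was at 710.20 and 983.94 TPM in +/+, at 722.51 TPM in Chd5-/- replicate 1 and at 110.93 TPM in replicate 2, the sample in which Dusp6, Spry1, Spry4 and Dusp4 were also low. Etv5, an ETS factor induced by FGF signalling, was at 199.83 and 200.66 TPM in +/+ and at 494.41 and 275.23 TPM in Chd5-/-, above +/+ in both. Etv1 and Etv4 of the same list differed from it. Etv1 was at 120.27 and 104.04 TPM in +/+ and at 61.96 and 97.9 TPM in Chd5-/-, below +/+ in both. Etv4 was at 46.49 and 34.63 TPM in +/+ and at 48.62 and 39.4 TPM in Chd5-/-, within the +/+ range in replicate 2. Fos, an immediate early gene, was at 67.98 and 63.32 TPM in +/+, at 38.39 TPM in Chd5-/- replicate 1 and at 121.17 TPM in replicate 2. ERK-induced genes therefore did not share 1 order of samples.

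Few ligand genes were expressed. Of the EGF family 4 of the 10 with a row, and of the FGF family 3 of 14, had a mean of 1 TPM or more, and none passed an unadjusted p of 0.05. Nrg2 had the highest log2 fold change among EGF family ligands (0.68) and Btc the lowest (-0.58). Hbegf, an EGFR ligand, was at 28.86 and 50.68 TPM in +/+ and at 70.64 and 19.01 TPM in Chd5-/-, while Tgfa, another, was at 4.55 and 5.32 TPM in +/+ and at 3.01 and 16.06 TPM in Chd5-/-. Hbegf and Tgfa thus had opposite orders in the Chd5-/- samples, and Btc, at 1.66 and 0.8 TPM there, had the order of Hbegf. Fgf1 was the most abundant FGF ligand, with 67.50 and 99.90 TPM in +/+ and 89.24 and 41.47 TPM in Chd5-/-, and had the lowest log2 fold change of its list (-0.43). Fgf23 had the highest (1.80), from 12.10 TPM in Chd5-/- replicate 1 alone, with at most 0.07 TPM elsewhere. Among the 7 other receptors and heparan sulfate co-receptors tested, Gpc1 (1.86, adjusted p = 0.134 from limma) and Sdc3 (1.27, adjusted p = 0.172) were higher at an unadjusted p under 0.05, beside 21.9% of all rows. Both differed by more than 2-fold between the Chd5-/- samples, Gpc1 at 14.04 and 36.29 TPM and Sdc3 at 77.59 and 182.04 TPM. Sdc1, Sdc2, Sdc4 and Gpc4 were above the +/+ range in Chd5-/- replicate 1 and below it in replicate 2. Fgfrl1, an FGF receptor without a kinase domain, was lowest (-0.29).

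Across all rows, transcripts richer in GC had higher fold changes, so each gene was also set beside rows of like GC content. The 10 genes spanned 40.6% (Erbb4) to 57.3% (Erbb2). The median log2 fold change of the 1000 rows nearest in GC content ranged from -0.17 for Erbb4 to 0.98 for Erbb2. All 4 feedback genes lay below the median of their neighbours, as did Fgfr2, Fgfr3 and Erbb2, and Egfr, Erbb4 and Fgfr1 lay above it. Spry1 lay farthest, at -1.28 where its neighbours had a median of 0.97, and was at -2.16 with the trends removed (adjusted p = 0.447 from limma). The part of GC content in each difference was not tested further.

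**Figure D5:**
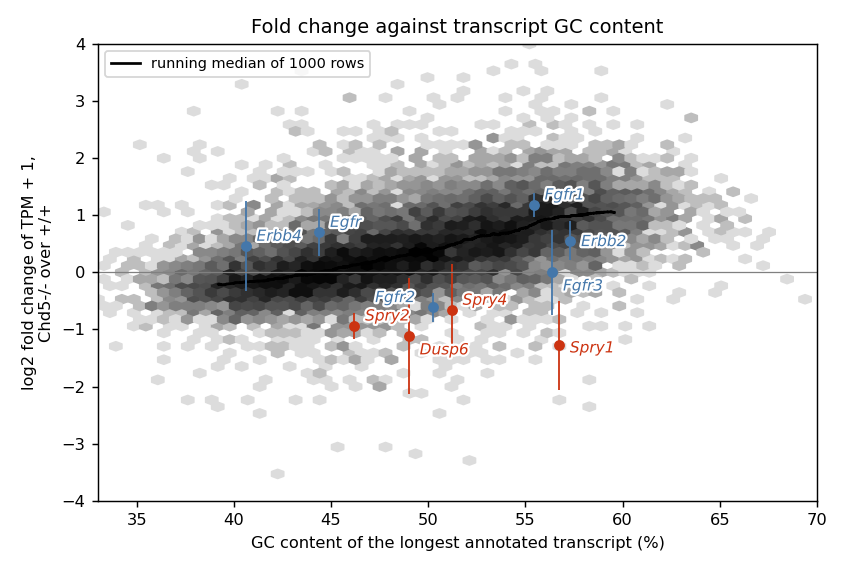
Log2 fold change of TPM + 1, Chd5-/- over +/+, against the GC content (%) of the longest annotated transcript, with all rows tested that have a GC value as grey hexagons, their running median over 1000 rows as a black line, and the 10 genes as points with the standard error from limma (blue, receptors; red, feedback genes). The line rises from left to right, the 4 feedback genes lie below it, and Fgfr1 lies close above it.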

How the data were processed

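RNA-seq of 4 samples of primary mouse NSCs was analysed, 2 +/+ and 2 Chd5-/-. The TPM values were deposited by the authors in 1 table. The submitters' processing notes name Bowtie2 2.2.3, RSEM 1.2.20 and mm10, and stranded mRNA libraries were prepared. The gene annotation and the strand setting of the counting are not given in the sources used here. Values were used as deposited, on the log2(TPM + 1) scale. Rows averaging 1 TPM or more were fitted by limma 3.58.1 under R 4.3.3, with a mean-variance trend in the empirical Bayes step, two-sided and without covariates. All p-values treat the culture as the unit. In limma the spread between cultures of a genotype is moderated by that of all rows. In a fit that leaves out 1 sample, this spread comes from the 2 cultures of the other genotype alone. Transcript GC content, length and coordinates came from GENCODE M21 (GRCm38), with GC values for 93.0% of the rows tested, and trends were removed by loess (span 0.5). Rows without a GC value were left out of that fit.

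The 10 genes, the lists and the alternatives were chosen with earlier results of these data known. Beyond the 10 genes and Chd5, the highest and lowest row of each list were named by rule, with Erbb3, Fgfr4 and Spry3 and the rows closest to the 2 genes of smallest p. Further genes were picked with their values in view. Some results of the cascade list are not reported here. The fitting was tested on simulated data. Alternatives were other pseudocounts, filters, scalings, variance models, the replicate number as a block and leaving out each sample. The deviations of same-numbered samples were only weakly correlated, and negatively (-0.152 across rows), so the numbers were not taken to pair the cultures.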

Additional observations from a re-analysis of the deposited data

How the results depend on the processing

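Of the 10 genes, 0 passed an adjusted p of 0.05 under any alternative that kept all 4 samples or left out a +/+ sample, and the calls without a Chd5-/- sample are given above. Fgfr1 and Egfr stayed higher and Spry2, Fgfr2 and Spry1 lower under every alternative run. Egfr and Spry1 were near 0 without Chd5-/- replicate 2, at 0.13 and -0.062. At an unadjusted p under 0.05, the 1 higher gene became 0 with GC and length trends removed, with or without the replicate block, and 1 to 4 with a sample left out. The 1 lower gene became 2 after removal of the trends and after each of the 3 other scalings, 3 with the trends removed under the replicate block, and 0 to 4 with a sample left out. With the replicate block alone 0 rows passed the adjusted threshold and 2289 the unadjusted one. With crossed replicate numbers, an alternative added after the data were seen, these were 5 and 3092. The 7 rows past the adjusted threshold became 4 with a pseudocount of 0.1, 0 without a minimum TPM, 1 after quantile normalization, 3 with the trends removed, 0 with the trends removed under the block, and 0 to 1247 with a sample left out. The 3033 rows at an unadjusted p under 0.05 became 1758 with a minimum of 10 TPM, 1312 with the trends removed, 865 with the block as well, and 804 to 4436 with a sample left out.

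Directions that reversed were those of Erbb2 (-0.044 after quantile normalization, -0.30 with the trends removed, with or without the block) and Fgfr3, which is near 0 (0.051 with a pseudocount of 5). With a sample left out, log2 fold changes ranged from -0.76 to 1.68 for Erbb4, -1.14 to 1.14 for Fgfr3, -1.93 to 0.60 for Spry4 and -2.71 to 0.47 for Dusp6, in each case between the fits without the one or the other Chd5-/- sample. The share of Egfr among ERBB receptors differed by 0.35 percentage points, -0.094 with the trends removed and -3.13 to 3.83 with a sample left out. That of Spry2 among Sproutys differed by -3.33, 3.15 with the trends removed and -19.7 to 13.0 with a sample left out. Beyond the trend removal itself, the cause of these changes was not tested.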

Other observations

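The 6 proliferation markers examined summed to 683 and 487 TPM in +/+ and to 610 and 663 TPM in Chd5-/-. None of them passed an unadjusted p of 0.05 with limma. In Chd5-/- replicate 2, where Ccnd1 was low, they were divided. Mki67 was the highest of the 4 samples there, at 80.06 TPM (48.23 and 23.46 TPM in +/+, 42.95 TPM in Chd5-/- replicate 1), as were Top2a, Ccnb1 and Cdk1. Pcna was the lowest there, at 191.8 TPM (359.42 and 290.5 TPM in +/+, 284.23 TPM in Chd5-/- replicate 1), and Mcm2, at 8.49 TPM, lay within the +/+ range of 7.16 to 12.04 TPM.

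By the distance between row-centred log2(TPM + 1) over the 4 samples, the rows most like Fgfr1 were Fam217a (0.059), Nagk (0.088) and Fah (0.089), and those most like Spry2 were Sox11 (0.13), Rhoq (0.14) and Zfp770 (0.15). With 4 samples such likeness is common, since 1063 rows lay within 0.5 of Fgfr1 and 331 within 0.5 of Spry2.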
